A study of Mus musculus with 5 samples.

Results

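The genes described here carry out DNA replication and the S phase of the cell cycle. They form a list of 44 genes in 5 functional classes, and a gene was taken as measured when the array annotation gave its symbol, and no other symbol, to at least 1 probe set. By that rule 42 of the 44 genes were measured, out of 8251 named genes on the array, on 56 probe sets. The DNA polymerase gene Pole had no probe set, and the thymidylate synthase gene Tyms was represented only by 2 probe sets that the annotation shares with a pseudogene, so neither is described.

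The material was total RNA of 5 mouse samples, labelled as FLT3+/CD11b+ dendritic cell progenitors taken from bone marrow, numbered 1 to 5 and measured on 1 array each. FLT3 is a cytokine receptor of early blood cell progenitors and CD11b is an integrin of myeloid cells. The labels name no strain, age, treatment, time or culture, nor whether the samples came from separate animals or pools, so all 5 form 1 group and any spread between them may be technical. Signals below are array intensities brought to a common array median of 103.4. Both sort genes had signals above that median on all 5 arrays: Flt3 had signals of 571, 1212, 353, 1268 and 318 in samples 1 to 5, and Itgam, which encodes CD11b, had signals of 789, 546, 223, 343 and 486.

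A cell copies its genome once per cycle. In G1 the origin recognition complex, CDC6 and CDT1 load the MCM helicase ring onto DNA, and in S phase kinases and CDC45 switch the helicase on, after which primase, the replicative polymerases, the sliding clamp PCNA and its loader RFC build the new strands. Ribonucleotide reductase and the salvage kinases supply the deoxynucleotides, chromatin assembly factors and histone supply rebuild the nucleosomes, and transcription of many of these genes is controlled by E2F factors through short promoter words.

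Those words could be read directly in the promoters of the measured genes. RefSeq promoter sequences (build GRCm38.p6, 250 bases before to 50 after the annotated start) were at hand for 38 of the 42 genes, and 4 E2F words, TTTGGCGC, TTTGCCGC, TTTCGCGC and TTTCCCGC, were searched on both strands. At least 1 of these words was found in 13 of the 38 genes (34.2%), against 270 of 6516 other genes on the array (4.14%) and 1 of 22 genes of a mitosis list (4.55%); over every gene of the promoter table the share was 2.61%. A gene with several annotated starts was counted when any of its promoters held a word. The 13 genes held 19 matches, some of which overlap because a word and the reverse of another can share bases, and 10 of the 19 lay within 100 bases of the start. The stretches below show where the word lies in 12 of them, with the E2F words in capitals on the strand of the gene and each read 5′ to 3′.

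Mcm3 (chr1:20820266-20820294, reverse strand): gGCGGGAAAacttgggaagtTTTGGCGCc
Mcm5 (chr8:75109336-75109387, forward strand): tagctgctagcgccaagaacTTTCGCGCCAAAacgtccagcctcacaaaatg
Mcm6 (chr1:128359725-128359835, reverse strand): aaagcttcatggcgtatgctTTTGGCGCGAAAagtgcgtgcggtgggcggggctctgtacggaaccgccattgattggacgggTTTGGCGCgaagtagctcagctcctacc
Mcm7 (chr5:138172021-138172068, reverse strand): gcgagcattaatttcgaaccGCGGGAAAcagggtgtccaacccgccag
Orc1 (chr4:108579407-108579453, forward strand): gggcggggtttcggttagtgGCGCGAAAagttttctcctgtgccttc
Cdc6 (chr11:98907993-98908040, forward strand): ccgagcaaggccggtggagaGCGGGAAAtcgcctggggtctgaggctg
Cdt1 (chr8:122568036-122568064, forward strand): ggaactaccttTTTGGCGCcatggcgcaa
Pola1 (chrX:93632266-93632313, reverse strand): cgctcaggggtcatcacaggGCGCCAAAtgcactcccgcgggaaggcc
Pold1 (chr7:44548766-44548787, reverse strand): cgtatcttgtgGCGGGAAAagc
Lig1 (chr7:13278841-13278870, forward strand): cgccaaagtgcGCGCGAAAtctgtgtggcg
Msh6 (chr17:87975054-87975083, forward strand): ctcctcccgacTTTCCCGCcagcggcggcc
Dnmt1 (chr9:20952815-20952862, reverse strand): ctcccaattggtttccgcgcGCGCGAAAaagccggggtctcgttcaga

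The stretches were limited to 12 genes in list order, which begins with the helicase and licensing class. Of the 12, 7 belong to that class, a count that depends partly on this limit. The Mcm5 stretch holds 2 words that overlap, the first of them beginning 153 bases before the start, and Mcm6 holds such an overlapping pair beginning 110 bases before the start and a further word at 47 bases. The Orc1 word begins 27 bases before the start, and those of Cdc6 and Pola1 begin 138 bases before it. In Mcm3, Cdt1, Pold1, Lig1 and Msh6 the words shown lie after the start. Mcm7 and Dnmt1 each hold a further word after the start that is not printed, and the remaining gene, Uhrf1, holds a word beginning 185 bases before its start. Mcm7, Lig1, Dnmt1 and Uhrf1 each have several annotated starts, and their words lie in the promoter of a single one. A match is a string of letters in reference sequence, not a measured binding site, and no match says only that these letters are absent from this window.

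CCAAT and CHR words were found in a larger share of mitosis genes than of replication genes. The letters CCAAT, on either strand the core of the NF-Y box, were found in 22 of 38 replication genes (57.9%), 18 of 22 mitosis genes (81.8%) and 42.3% of the other array genes. The CHR words of late cell cycle genes (TTTGAA or TTCGAA, either strand) were found in 9 of 38 replication genes (23.7%), 16 of 22 mitosis genes (72.7%) and 17.3% of the others. A GC box, GGGCGG on either strand, was in 29 of 38 replication genes (76.3%), 18 of 22 mitosis genes (81.8%) and 62.9% of the others; in a window from 150 bases before the start its order turned, to 73.7% of replication genes and 68.2% of mitosis genes.

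**Figure D1:**
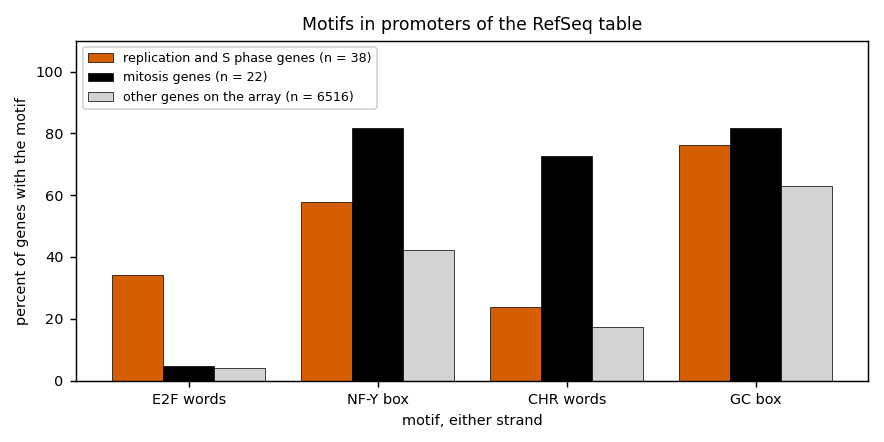
Percent of genes whose RefSeq promoter (250 bases before to 50 after the start) holds each motif on either strand, for 38 replication and S phase genes, 22 mitosis genes and 6516 other genes on the array; NF-Y box stands for the letters CCAAT. E2F words were found in 34.2% of the replication genes and 4.55% of the mitosis genes, and CHR words in 23.7% and 72.7%.

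Most of the replication genes had signals above the array median in every sample. The array median served as the limit, since the values came with no detection calls; it places a gene among the others of its array and is no call of presence or absence. Of the 42 genes, 32 lay above it on all 5 arrays (76.2%), against 44.5% of the 8251 named genes, 8 lay above it on some arrays and 2, Mcm6 and the mismatch repair gene Msh6, on none. By class, this was 10 of 13 helicase and licensing genes, 10 of 14 polymerase, clamp and fork genes, 4 of 5 nucleotide supply genes, 6 of 6 chromatin genes and 2 of 4 genes of S phase entry and checkpoint. With the limit at the 75th percentile of each array, 17 of the 42 genes remained above it, against 21.7% of the named genes. Levels of different genes cannot be ranked from these arrays, because probe sets bind their targets with different strength.

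**Figure D2:**
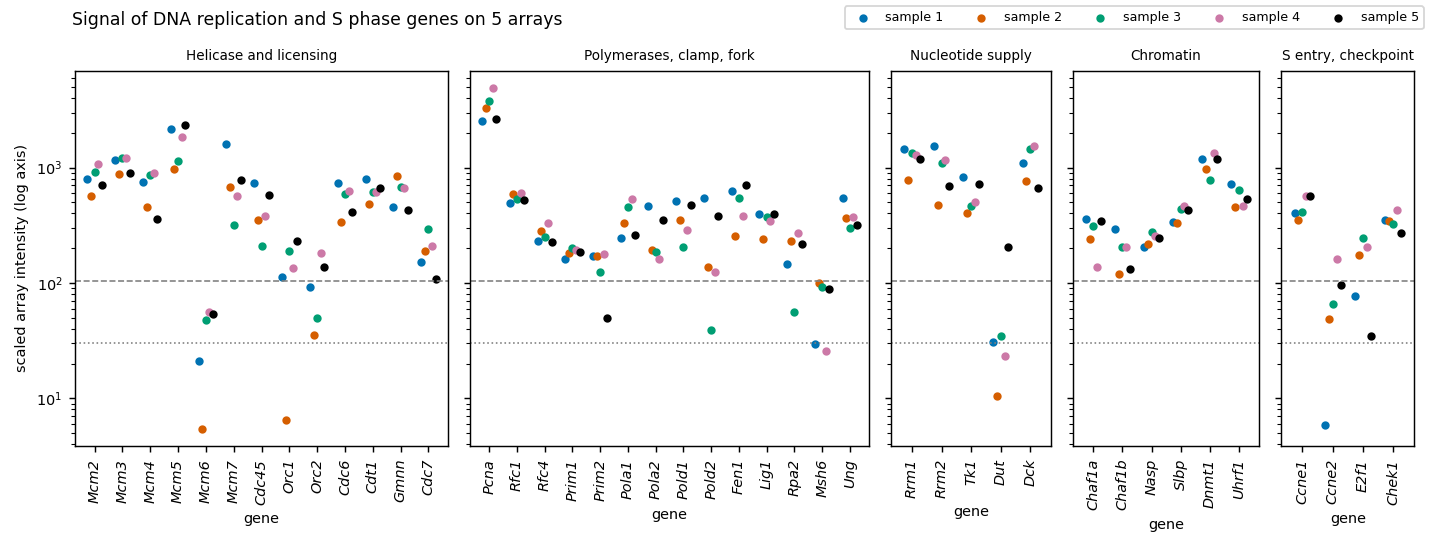
Scaled array intensity (log axis) of each of the 42 measured genes on the 5 arrays, 1 point per sample, in 5 functional classes; the dashed line is the common array median of 103.4 and the dotted line the floor of 30.04 used before log2 was taken. In 32 genes every point lies above the dashed line.

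The helicase and licensing class holds the MCM ring, the factors that load it and those that switch it on. Mcm2, a subunit of the ring, had signals of 799.7, 569.8, 908, 1074 and 709.6 in samples 1 to 5 (812 ± 192, SD, n = 5). Mcm3 had signals of 1171, 877, 1203, 1222 and 892 (1073 ± 173), and Mcm4 had 743, 455, 866, 889 and 355 (661 ± 243). On the probe sets used, these 3 ring subunits were highest in sample 4, next in sample 3, and lower in samples 2 and 5 than in the other samples.

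Another pair of ring subunits ran differently. Mcm5 signals were 2142, 964, 1130.4, 1827 and 2357 (1684 ± 614), highest in samples 5 and 1, and Mcm7 signals were 1608, 685, 320.5, 564 and 779 (792 ± 488). Mcm7 was 5.02-fold higher in sample 1 than in sample 3, the widest ratio among the 32 genes above the limit on all arrays. Cdc45, the partner that switches the ring on, was likewise highest in samples 1 and 5 and lowest in sample 3, at 733, 351, 209, 381 and 573 (449 ± 205). The subunits of this 1 ring thus did not share an order of samples. Mcm6 completed the ring, but its probe set gave 21.2, 5.41, 47.6, 56.0 and 53.5, under the array median throughout and under the floor of 30.04 in samples 1 and 2, so it carries no ranking.

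The loading factors lay mostly lower in sample 2. Cdc6, a loader of the MCM ring, had signals of 736, 335, 586, 632 and 409 (539.5 ± 165), and Cdt1, its partner, had 793, 484, 617, 611 and 661 (633 ± 111); in both, sample 1 was highest and sample 2 lowest. A second Cdt1 probe set, also above the limit on all arrays, gave 659, 787, 695, 576 and 453, with sample 2 highest and sample 5 lowest, so the low position of Cdt1 in sample 2 rests on 1 of its 2 probe sets. Gmnn encodes geminin, the inhibitor of CDT1, and had the opposite position from the Cdt1 probe set used: its signals were 452, 846, 674, 671 and 431 (615 ± 173), highest in sample 2. It was the single gene of the 37 that passed the filter on low signal, a mean log2 signal above the common median, with its highest value in sample 2.

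The origin recognition genes lay nearer to the array median. Orc1 had 114, 6.54, 188, 135 and 232, a value under the floor in sample 2 and values above the array median in the other 4, and Orc2 had 92.0, 35.1, 49.6, 183 and 138, above the median in samples 4 and 5. Cdc7, the kinase that fires licensed origins, had signals of 153, 189, 292, 209.6 and 108, above the median on every array and highest in sample 3. No fold is given for Orc1 or Orc2 against sample 2, since the first lies under the floor there and the second near it.

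Among polymerases, clamp and fork enzymes, the sliding clamp gene Pcna had 2516, 3262, 3747, 4924 and 2648 (3419.6 ± 976), highest in sample 4 and lowest in sample 1. The listed clamp loader subunits varied little: Rfc1 had 492, 596, 538, 601 and 524 (550.3 ± 47.2), a ratio of highest to lowest of 1.22-fold, and Rfc4 had 230.1, 282, 252, 328 and 227 (264 ± 42.1). The small primase subunit Prim1 also stayed within a narrow range, at 161, 181, 200.1, 194 and 184 (184 ± 15.0). The loader subunits outside the list, named after their values were seen, had wider ratios of highest to lowest signal, at 1.8-fold for Rfc2, 1.69-fold for Rfc3 and 2.49-fold for Rfc5. Rfc1, Rfc4 and Prim1, together with the histone chaperone gene Nasp, had an SD of log2 signal below the 10th percentile of named genes of like mean signal (same decile).

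On the probe sets used, subunits of 1 enzyme again differed in the order of samples. Pola1, the catalytic subunit of the polymerase that extends primers, had 245, 331, 459, 539 and 259.6 (367 ± 128), highest in samples 4 and 3. Its partner subunit Pola2 had 462, 194, 187, 162 and 353, highest in samples 1 and 5 and lowest in sample 4. A second Pola2 probe set, above the array median on 2 arrays, was highest in samples 3 and 1. The primase pair differed too: Prim2, the large subunit, had 170.1, 170.0, 123, 179 and 49.5, close together in samples 1, 2 and 4 and below the array median in sample 5. Sample 5 of Prim2 stood apart from the other 4 by Dixon's test at the 95% level.

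Polymerase delta copies the lagging strand, and its listed subunit genes were highest in samples 1 and 5. The catalytic subunit gene Pold1 had 513, 349, 204, 288 and 477 (366 ± 129) and the second subunit gene Pold2 had 549, 138, 39.0, 123 and 381 (246 ± 212), both lowest in sample 3. Subunit genes outside the list, named after their values were seen, differed. Pold4 had this order over a narrow range, at 270, 243, 224, 246 and 255. Pold3 did not, at 419, 379, 377, 398 and 322, lowest in sample 5. Pold2 had, with Mcm7, an SD above the 90th percentile of named genes of like signal (1.502 and 0.84 on the log2 scale). Fen1, the flap nuclease of Okazaki fragment processing, had 629.8, 254, 547, 379.9 and 706, and Lig1, the ligase that seals the fragments, had 393, 241, 374, 344 and 396 (349.6 ± 64.1). Both had their 2 highest signals in samples 5 and 1 and their lowest in sample 2, and for Lig1 sample 2 stood apart from the other 4 by Dixon's test. The test's ratio was close to its limit of 0.71 for both Lig1 (0.715) and Prim2 (0.711).

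The remaining fork and repair genes showed no common order. Rpa2, a subunit of the single-strand binding protein, had 146, 233, 55.5, 269 and 217, under the array median in sample 3 alone. The uracil glycosylase gene Ung had 546, 368, 300.2, 376 and 319, highest in sample 1, while a second Ung probe set gave 181, 145, 188, 205 and 238, highest in sample 5. Msh6 had 29.6, 99.4, 91.7, 25.8 and 89.1, under the median on every array.

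On the probe sets used, the 4 nucleotide supply genes passing the filter were low in sample 2. Each lay below the mean of the other samples there, against 44.3% of named genes. Rrm1, the large subunit of ribonucleotide reductase, had 1449, 778, 1350.0, 1293 and 1180.0 (1209.9 ± 261), and the small subunit Rrm2 had 1533, 474, 1096, 1174 and 697 (995 ± 416); both were highest in sample 1 and lowest in sample 2. Rrm2 in sample 2 lay 1.19 below the mean of the other samples on the log2 scale, and Rrm1 0.76 below. The second Rrm1 probe set was highest in sample 2, but lay under the array median on every array. The salvage kinase gene Tk1 had 833, 405, 463, 499 and 715 (583 ± 182), lowest in sample 2 as well. Dck, the deoxycytidine kinase, had 1091, 759.6, 1443, 1545 and 670.0, with samples 5 and 2 lowest and sample 4 highest. The dUTPase gene Dut had 31.0, 10.4, 34.6, 23.2 and 206, near or under the floor in all but sample 5, on a gene that did not pass the filter on low signal. Sample 5 of Dut stood apart by Dixon's test with low values raised to the floor, and did not without the floor (ratios of 0.927 and 0.597).

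All 6 chromatin genes lay above the limit on every array. The large subunit of chromatin assembly factor 1, Chaf1a, had 359, 241, 313, 138 and 346, lowest in sample 4, and its partner Chaf1b had 296, 119, 205, 203 and 132, lowest in sample 2. Slbp, which binds the stem-loop of histone mRNA, had 334, 328, 435, 464 and 432, and the histone chaperone gene Nasp had 203, 217, 279, 253 and 246. The maintenance methyltransferase gene Dnmt1 had 1179.8, 965, 783, 1325 and 1190.3, lowest in sample 3, and Uhrf1, which brings that enzyme to hemimethylated DNA, had 715, 453, 644, 460.2 and 535, lowest in sample 2. In sample 2 each of the 6 lay below the mean of the other samples, by a median of 0.26 on the log2 scale. Of named genes passing the filter, 44.3% lay below it.

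Genes of S phase entry and checkpoint behaved singly. Ccne1, encoding cyclin E1, had 402, 351, 410.0, 564 and 567, higher in samples 4 and 5 than in the others, and the checkpoint kinase gene Chek1 had 349, 343, 323, 425 and 271. Ccne2 did not pass the filter, at 5.92, 48.9, 66.3, 163 and 95.8. E2f1, the transcription factor of S phase entry, had 77.4, 176, 248, 204 and 34.4, highest in sample 3, but its second probe set gave 152, 68.8, 17.6, 50.9 and 73.7, highest in sample 1 and lowest in sample 3. The 2 E2f1 probe sets therefore give opposite orders, so the position of E2f1 is not settled. The probe set used still counts among the 37 genes and in the class medians below.

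For 14 of the 42 genes the annotation gave 2 probe sets, and the one with the higher mean signal was used. The second probe set lay above the limit on all arrays for 3 of them, Mcm3, Cdt1 and Ung, and the pair fell on different sides of the limit for 9. The second Mcm3 probe set gave 651, 654, 961, 979.6 and 804, highest in samples 4 and 3 like the first, but it was lowest in sample 1, whereas the first was lowest in sample 2.

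Across the 37 genes passing the filter, sample 2 held the lowest of the 5 values for 15, against 18.4% of the 4557 named genes that passed the same filter. Sample 1 was lowest for 5 (27.8% of named genes), sample 3 for 7 (21.3%), sample 4 for 2 (8.51%) and sample 5 for 8 (24%). The highest value lay in sample 1 for 14 genes (21.4% of named genes) and in sample 4 for 13 (29.2%). With no filter, sample 2 was lowest for 16 of 42 genes, against 13.2% of all named genes. Genes whose lowest value was shared between samples at the floor were counted for no sample. This lowers the share over all named genes, so the unfiltered values are not a like comparison. In bulk RNA such as this, fewer cells of a type and less RNA per cell cannot be told apart.

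Deviation here means the log2 signal in 1 sample less the mean of the other 4 samples, and its median over the 37 genes was 0.24, -0.33, 0.18, 0.25 and -0.01 in samples 1 to 5. The same medians over all named genes passing the filter were -0.06, 0.08, -0.01, 0.24 and -0.11. In sample 2, 28 of the 37 genes lay below the mean of the other samples, against 44.3% of named genes. After quantile normalization the median in sample 4 was 0.03, against 0.07 over named genes, and that in sample 2 was -0.37. Set against single samples, sample 2 was lower than sample 4 in 31 of 37 genes (58.6% of named genes), lower than sample 1 in 27 (45.8%), lower than sample 3 in 24 (44.9%) and lower than sample 5 in 24 (41.8%). The median in sample 2 shrank to -0.19 without sample 1 and to -0.16 without sample 5. That of sample 1 was 0.12 without sample 2 or sample 5 and 0.41 without sample 3, and that of sample 3 was 0.02 without sample 2, 0.11 without sample 1 and 0.11 without sample 5. Without sample 2, sample 5 was lowest for 14 genes, sample 1 for 8 and sample 4 for 6; without sample 5, sample 1 was lowest for 9, and without sample 3, sample 4 was lowest for 5.

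Some genes of a neutrophil granule marker list were also lowest in sample 2, and others were not. Of 13 such genes passing the filter, 6 had their lowest value there, against the 18.4% of named genes, and their median deviations were -0.45, -0.49, -0.53, 1.095 and 0.41 in samples 1 to 5. In sample 2, 8 of the 13 lay below the mean of the other samples. Another 5 of the 13, Ngp, S100a8, S100a9, Mmp8 and Chil3, were lowest in sample 1. These 5, named after their values were seen, lay 0.38 to 0.97 above that mean in sample 2. Mpo, which encodes myeloperoxidase, had 7306, 3491, 4249, 8138 and 7239, Elane, which encodes neutrophil elastase, had 10647, 2027, 2760.0, 6325 and 7356, and the protease gene Prtn3 had 6429, 1822, 2022, 2348 and 4229.7, all lowest in sample 2. Ctsg, a further granule protease gene, had 8592, 2678, 1643, 2396 and 2782, lowest in sample 3. Their part in the low position of the replication genes was not tested.

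**Figure D3:**
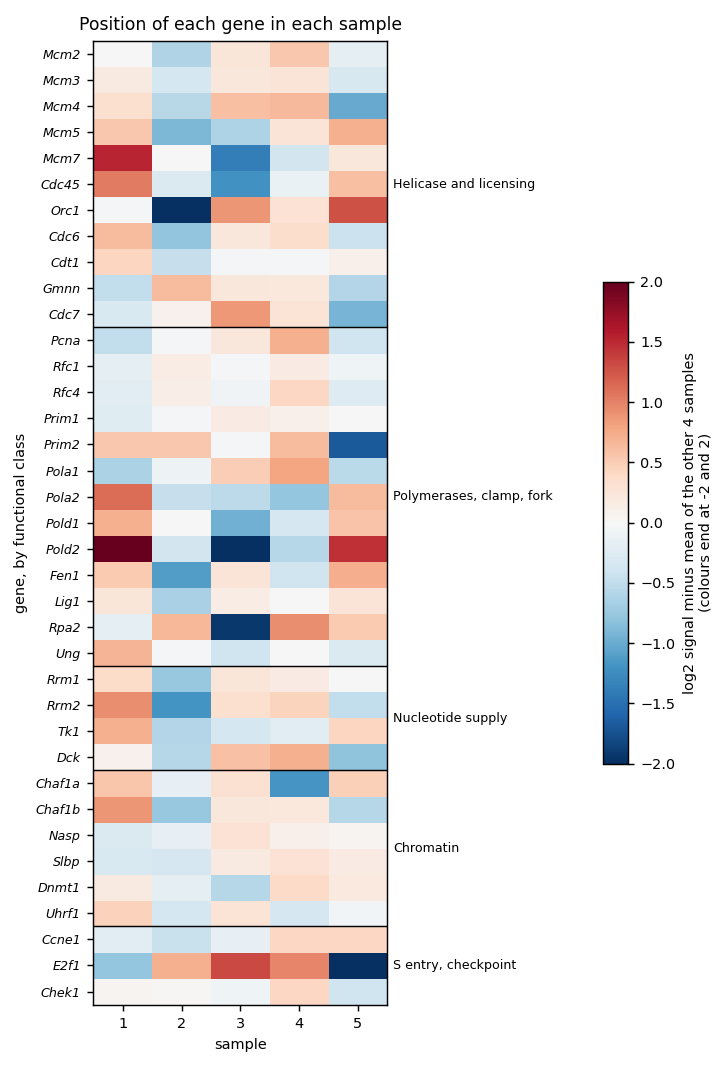
For each of the 37 genes passing the filter (rows, by class), the log2 signal in a sample minus the mean of the other 4 samples (columns, samples 1 to 5), with colours that end at -2 and 2. The column of sample 2 is blue, below the other samples, for 28 of the 37 genes, against 44.3% of named genes.

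The classes differed in how far they followed this. The nucleotide supply genes had the lowest median in sample 2, -0.67 over 4 genes, followed by helicase and licensing at -0.46 over 11 genes and chromatin at -0.26 over 6. The 13 polymerase, clamp and fork genes had a median of -0.03, with 2 of 13 lowest in sample 2, and the 3 genes of S phase entry and checkpoint had 0.02. Those 3 include E2f1, whose probe sets disagree, at 0.71, beside Ccne1 at -0.45 and Chek1 at 0.02. Genes lowest in sample 2 made up 6 of 11 helicase and licensing genes, 3 of 4 nucleotide supply genes and 3 of 6 chromatin genes. They made up 1 of 3 genes of S phase entry and checkpoint. The share over named genes was 18.4%. These are counts over small classes, and no difference between classes was tested.

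Genes with and without an E2F word in the promoter were also set side by side. The 11 genes with a word that passed the filter had median deviations of 0.43, -0.36, 0.15, 0.25 and 0.19 in samples 1 to 5, and the 23 without one had 0.06, -0.29, 0.18, 0.21 and -0.01. The medians lay nearer to each other in sample 2 than in samples 1 and 5. In sample 2, 7 of 11 and 8 of 23 had their lowest value, against 18.4% of named genes. In sample 5 it was 0 of 11 and 5 of 23, against 24%. The split was not tested.

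**Figure D4:**
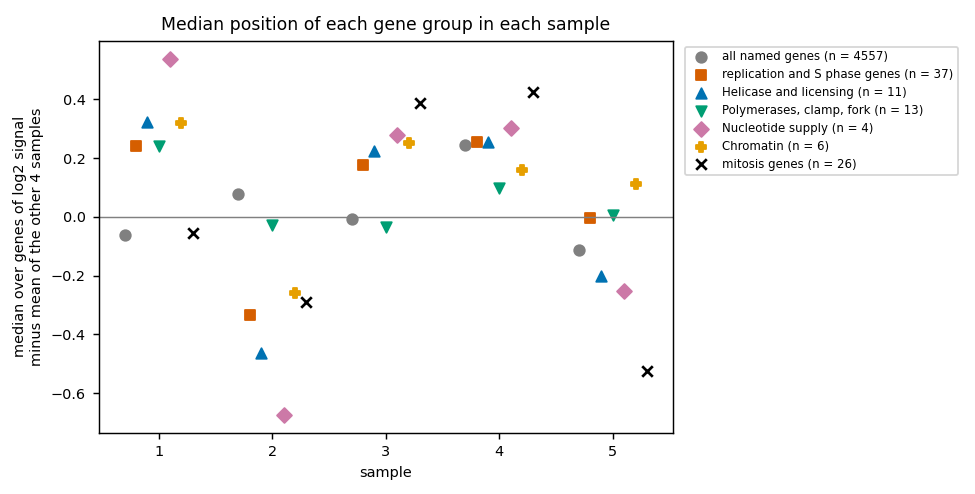
Median over genes of the log2 signal minus the mean of the other 4 samples, per sample (horizontal axis), for all named genes, the 37 replication and S phase genes, 4 of their classes and 26 mitosis genes. In sample 2 nucleotide supply lies at -0.67 and all named genes at 0.08; in sample 5 the mitosis genes lie at -0.53.

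On the probe sets used, 22 of the 37 genes fell into 2 recurring orders of samples, a count made after the values were seen. In 11 of the 37 genes (29.7%) the 2 highest signals lay in samples 1 and 5, against 13.8% of named genes: Mcm5, Mcm7, Cdc45, Cdt1, Pola2, Pold1, Pold2, Fen1, Lig1, Tk1 and Chaf1a. In another 11 (29.7%) they lay in samples 3 and 4, against 16% of named genes: Mcm2, Mcm3, Mcm4, Cdc7, Pcna, Prim1, Pola1, Dck, Nasp, Slbp and E2f1. Both orders occurred in the helicase and in the polymerase class. The second count includes E2f1, whose probe sets disagree, and is 10 without it. After quantile normalization the first count was 12, against 18.7% of named genes, and the second 7, against 13.5%. Of the 22 genes, 9 had a second probe set, and it had the same 2 highest samples for 3, Mcm3, Lig1 and Dck. It had another pair for 6, Mcm5, Cdt1, Pola2, Pold1, Tk1 and E2f1. Of these second probe sets, those of Mcm3 and Cdt1 lay above the limit on all arrays, and the others did not.

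Values of RNA quality ran with the order in which samples 3 and 4 were highest. The arrays carry probe sets for the 3′ and the 5′ end of control genes, and a higher 3′ over 5′ ratio means that less of the 5′ end was measured. The actin ratio was 1.08, 3.003, 4.15, 5.20 and 2.55 in samples 1 to 5, the Gapdh ratio 0.896, 1.06, 4.52, 3.42 and 2.01, and the transferrin receptor ratio 3.14, 3.77, 16.7, 8.63 and 5.16. All 3 ratios were higher in samples 3 and 4 than in the other samples, and lowest in sample 1. Sample 5 was next to lowest for actin, but sample 2 was for Gapdh and the transferrin receptor. Their part in the order of the replication genes was not tested.

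**Figure D5:**
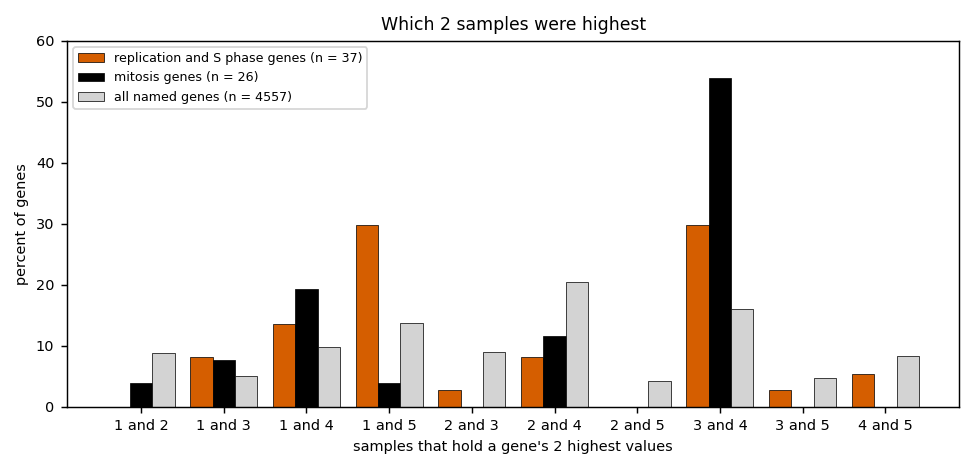
Percent of genes whose 2 highest signals lie in each pair of samples (horizontal axis), for 37 replication and S phase genes, 26 mitosis genes and 4557 named genes. Replication genes reach 29.7% both for samples 1 and 5 and for samples 3 and 4, and mitosis genes 53.8% for samples 3 and 4.

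Genes of mitosis, the later phase of the same cycle, lay above the limit in 26 of 27 measured genes. The mitotic kinase gene Cdk1 had 1498, 667, 1298, 1301 and 765, the cyclin gene Ccnb2 2184, 1915, 1803, 2493 and 1647, the proliferation marker gene Mki67 2456, 1647, 2441, 2804 and 1649.7 and the topoisomerase gene Top2a 1042, 752, 1186, 1154 and 711. Their 2 highest signals lay in samples 3 and 4 for 14 of 26 genes (53.8%) and in samples 1 and 5 for 1 of 26 (3.85%). The median deviations of the mitosis genes were -0.06, -0.29, 0.39, 0.42 and -0.53 in samples 1 to 5. They shared the low position in sample 2 with the replication genes but lay lowest in sample 5. There 13 of 26 had their lowest value, against 24% of named genes, and the replication genes had a median of -0.01.

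A further list held 39 other replication genes, of which 29 were measured and 21 lay above the limit on all arrays. Their median deviations were -0.10, -0.03, 0.29, 0.24 and -0.13. Of the 25 genes passing the filter, 8 were lowest in sample 2, against 18.4% of named genes. The first measured genes of that list were Mcm10, Gins2, Dbf4 and Orc4. Mcm10, a factor that helps switch on the helicase, had 192, 22.2, 236, 221 and 182, under the floor in sample 2, which stood apart by Dixon's test. Gins2, a subunit of the active helicase, had 30.8, 33.997, 18.4, 68.4 and 44.4, and Dbf4, the partner of CDC7, had 51.3, 28.2, 33.5, 34.7 and 35.6, both under the array median on every array. Orc4, a subunit of the origin recognition complex, had 249.7, 292, 369, 321 and 341, lowest in sample 1.

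The spread of the replication genes lay close to that of other genes. The median SD of log2 signal over the 37 genes was 0.47, against 0.46 over named genes, and 20 of 37 lay above the middle of named genes of like signal. Over the 32 genes above the limit on all arrays, the ratio of highest to lowest signal ran from 1.22 to 5.02 with a median of 1.96, against 2.05 over 3674 named genes, and 17 of 32 stayed under 2-fold (53.1%), against 47.1% of named genes. An outlying sample by Dixon's test was found in 2 of 37 genes, Prim2 and Lig1, against 5.97% of named genes; without sample 1, 3 or 4 the count was 1.

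Summed signals of 4 cell marker lists were also taken. Of the neutrophil granule list, 13 of 14 measured genes lay above the limit on all arrays, and the summed signal was 96318, 221277, 163724, 337060 and 213573 in samples 1 to 5. For T and NK cells, 1 of 10 genes lay above the limit on all arrays and 5 on none, with sums from 442 to 821. For B cells it was 1 of 10 on all and 2 on none, with sums from 973 to 1440.1, and for erythroid cells 2 of 7 on all and 2 on none, with sums from 1206 to 1776. Sample 2 was at neither end of these 4 sums, although single neutrophil genes were lowest there, as given above. It was next to the lowest for T and NK cells (450 against 442). It was next to the highest for B cells (1429 against 1440.1) and for the erythroid and neutrophil lists. The sums rest largely on the genes of highest signal, so they do not place the other genes of a list. In sample 2, S100a8 gave 68953 of the neutrophil 221277, Tfrc 1064 of the erythroid 1671 and Ighm 725 of the B cell 1429. The part of the cells of these 4 lists in the positions of the replication genes was not tested. Sample 1 was deposited on a scale of its own (column medians of 392 against 66.5 to 81.2), and the scaling used here removes 1 factor per array.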

How the data were processed

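Total RNA of 5 samples was measured on 1-colour probe-set arrays, 1 per sample. The deposited values are intensity values on a linear scale for 12488 probe sets; the steps that made them were not given in the sources used here. Precision is limited by the number of arrays, not by a depth.

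The 66 control probe sets were left out, every array's values were scaled by a single factor that set its median to 103.4, and values under the 25th percentile (30.04) were raised to it before taking log2. Quoted signals are scaled values before that step. Probe sets were named through the platform annotation: of 12422, 10833 had 1 symbol, 396 had several and 1193 were not listed. Where a gene had several probe sets, the one highest in mean log2 signal stood for it, and all 42 measured genes matched the RefSeq table. Position counts used genes with a mean log2 signal above the common median.

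The labels give 1 group, so values are descriptions beside the same over all named genes; Dixon's test at 95% was the one test, and the calculations were tested on simulated data. The genes and lists were chosen with earlier results of these data known. All measured genes of the list may be named; of each other list, the first 4 measured, and for the cell cycle lists those with an outlying sample; promoter stretches were limited to 12 genes in list order. Alternatives changed the scaling, floor, filter, probe set, limit, promoter window and samples. Python 3.11.15, numpy 2.4.6, pandas 2.3.3 and matplotlib 3.10.9 were used.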

Additional observations from a re-analysis of the deposited data

Results flagged for a closer look

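Of 78 named genes with 5 values, 7 had 1 sample apart from the other 4 by Dixon's test. Chance alone sets about 1 in 20 genes apart. The 78 include genes that did not pass the filter on low signal. Over all 8251 named genes of the array, the share was 14.2% with no filter and 5.97% with it. Among the replication and S phase genes, Prim2 was low in sample 5 (49.5), Lig1 was low in sample 2 (241), and Dut, which did not pass the filter on low signal, was high in sample 5 (206). Mcm10 of the other replication genes was low in sample 2 (22.2). Among markers of other cells, Cd3e was high in sample 1 (39.0), the erythroid genes Gata1 and Epor stood apart in sample 5, Gata1 low (12.3) and Epor high (84.6). The signals of Cd3e, Gata1 and Epor quoted here lie under the common median of 103.4. Without the floor, an alternative added after the data were seen, 5 of the 7 stood apart; Dut and Cd3e did not (ratios of 0.597 and 0.29 against the limit of 0.71), and for Cd3e the other 4 values had all been raised to the floor.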

How the results depend on the processing

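Over the results and alternatives run, 129 of 150 values kept within the spread or within 1.5 times of the value reported, and 21 moved. With values as deposited, where sample 1 keeps its own scale, the median deviations of the replication genes in samples 1 to 5 were 2.64, -0.97, -0.36, -0.58 and -0.44, sample 1 was lowest for 0 genes and sample 4 for 5, 18 genes had an outlying sample, 0 had their 2 highest values in samples 3 and 4, and the median SD was 1.29. Quantile normalization left 7 genes with their 2 highest values in samples 3 and 4. Some median deviations counted as kept nonetheless came near 0. That of sample 4 went from 0.25 to 0.03 with quantile normalization, and that of sample 3 from 0.18 to 0.02 without sample 2. A limit at the 75th percentile left 17 genes above it, and a promoter window starting 150 bases before the start left 5 genes with a CHR word.

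Leaving out 1 sample at a time gave 32 to 34 genes above the limit, median deviations of 0.12 to 0.41, -0.35 to -0.16, 0.02 to 0.18, 0.16 to 0.27 and -0.06 to 0.01 in samples 1 to 5, and 5 to 9, 15 to 16, 7 to 10, 2 to 6 and 8 to 14 genes lowest in them. It gave 1 to 3 genes with an outlying sample and a median SD of 0.41 to 0.47. No paired analysis was possible because the labels give 1 group. The arrays came without detection calls, so signals near the floor carry no order.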

Other observations

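Genes of purine, pyrimidine and folate metabolism had a median deviation above 0 in sample 2, where the replication genes lay below 0. Of 15 measured genes of that list, 12 lay above the limit on all arrays, and their median deviations were -0.08, 0.23, 0.11, 0.18 and -0.16 in samples 1 to 5. Of 14 genes passing the filter, 5 lay below the mean of the other samples in sample 2, against 44.3% of named genes. Shmt1 had 452, 238, 309, 192 and 253, and Mthfd2, a mitochondrial folate enzyme, had 2396, 4062, 2622, 3319 and 1269, highest in sample 2. Shmt2 was also highest there, at 213, 274, 88.2, 163 and 229. Dtymk was lowest there, at 659, 210, 961, 444 and 475. Regulators of G1 and S phase had 12 of 22 measured genes above the limit and median deviations of -0.11, -0.04, 0.00, 0.28 and -0.02. The cyclin D genes differed from each other: Ccnd1 had 136, 257, 103, 161 and 38.4, Ccnd2 had 273, 389, 432, 378 and 367 and Ccnd3 had 1506, 1023, 1073, 749 and 1380.2. Cdk4, their kinase partner, had 1946, 1017, 798, 871 and 1072.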
